A study of Sus scrofa with 9 samples.

Results

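ACTA1, ACTC1 and ACTA2 encode the skeletal, cardiac and smooth muscle alpha-actins, and their RNA was followed across embryonic longissimus dorsi, a long back muscle, of 3 pig breeds. The genes were chosen by name, with earlier results of these data known. Each is the 1 entry whose identifier maps to that pig symbol, giving 3 of the 19643 entries in the table. Their identifiers are ENSSSCG00000010190 for ACTA1, ENSSSCG00000004803 for ACTC1 and ENSSSCG00000010447 for ACTA2. All 3 passed the filter of a mean of at least 1 FPKM, as did 13106 entries in all. FPKM is a fragment count scaled by transcript length and by library size, so levels can be set side by side between genes.

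The libraries came from Tibetan pigs (n = 3) and Wujin pigs (n = 3), both given as Chinese indigenous breeds, and from Large White pigs (n = 3). Every animal is described as embryonic, with no day of gestation, sex, litter or batch. A breed difference therefore cannot be told apart from a difference in any of these. Of the Wujin columns, 1 matches a sample title and the other 2 share a header, so these are named Wujin a and Wujin b. Nothing in the labels ties the libraries to separate animals, and a p-value here measures only the spread between these libraries.

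Actin polymerises into thin filaments, along which myosin pulls when a sarcomere shortens. The alpha-actins differ at few residues, but their genes are used in different settings. In mammals ACTC1 is the main actin of the heart and is also made in quantity by developing skeletal muscle, where ACTA1 replaces it as the fibres mature. ACTA2 marks vascular smooth muscle and pericytes, and embryonic myoblasts make it for a time. Because the coding sequences are so alike, the way fragments were divided among the actins is uncertain.

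In Tibetan muscle nearly all muscle actin RNA was ACTA1, in the libraries where ACTA1 had a value, while in Wujin and Large White muscle ACTC1 was as abundant as ACTA1 or more so. ACTC1 was far lower in Tibetan libraries than in either other breed (24.6 FPKM on average, against 7582 in Wujin and 6593 in Large White), and ACTA2 was 7.62-fold lower than in Large White and 9.31-fold lower than in Wujin on the log2(FPKM + 1) scale. Wujin and Large White did not differ in ACTC1 or ACTA2 by the test used. ACTA1 has 1 value that decides its tests, a listed 0 in Tibetan 2, and its results are given with that value and without it.

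The skeletal isoform had the highest single values. ACTA1 stood at 37424, 0 and 41829 FPKM in Tibetan 1, 2 and 3, at 5708, 6722 and 7148 FPKM in Wujin 1, a and b, and at 4067, 3737 and 3208 FPKM in Large White 1, 2 and 3. Apart from the listed 0, the breeds did not overlap, with Tibetan highest and Large White lowest. ACTA1 was the entry of rank 2 and rank 3 by FPKM in Tibetan 1 and 3, ranked 6, 9 and 9 in the Wujin libraries, and ranked 19, 20 and 21 in the Large White libraries. It held 6.08% and 6.17% of all FPKM in Tibetan 1 and 3, against 1.13% to 1.30% in Wujin libraries and 0.592% to 0.706% in Large White libraries.

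A level of exactly 0 for an abundant gene may be a failed estimate, so no mean is given for ACTA1 in Tibetan muscle. Tibetan 2 had no other actin that stood out upward: its ACTC1 level was 22.7 FPKM and its ACTA2 level 45.7 FPKM, near those of the other Tibetan libraries. The table holds 6 such isolated zeros, meaning a 0 in a library whose 2 companions of the breed exceed 100 FPKM. ACTA1 is the only one in Tibetan 2, while 2 lie in Wujin a and 3 in Large White 1. Conversely, 4 entries in Tibetan 2 exceeded 1000 FPKM and 3 times the level in both other Tibetan libraries. The only one of these with a symbol was TNNC1, the slow and cardiac troponin C, at 8645 FPKM in Tibetan 2 against 1663 FPKM in Tibetan 1 and 1615 FPKM in Tibetan 3; it was picked out after its values were seen. Below that threshold, 4 other thin filament and Z-disc genes were also more than 1.5 times higher in Tibetan 2 than in either other Tibetan library: TNNI1, TNNT1, TPM2 and CSRP3, named for that reason. Whether the 0 of ACTA1 and these high values are linked was not tested.

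The cardiac isoform had the widest range between breeds. ACTC1 stood at 30.0, 22.7 and 21.0 FPKM in Tibetan 1, 2 and 3, at 7699, 7694 and 7352 FPKM in Wujin 1, a and b, and at 7347, 6304 and 6127 FPKM in Large White 1, 2 and 3. Every Tibetan library lay far below every other library, and the lowest Wujin value exceeded the highest Large White value by a small margin. By rank, ACTC1 was entry 5, 7 and 8 in the Wujin libraries and entry 9, 11 and 10 in Large White 1, 2 and 3, but ranked between 1410 and 1851 in the Tibetan libraries. Its share of all FPKM was 0.00310% to 0.00487% in Tibetan libraries, against 1.34% to 1.52% in Wujin libraries and 1.07% to 1.28% in Large White libraries. In bulk RNA, fewer cells of a type and less RNA per cell cannot be told apart, for this and every other level given here.

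ACTA2 was the least abundant of the alpha-actins in Wujin and Large White, and lay above ACTC1 in Tibetan. Its level was 52.0, 45.7 and 68.7 FPKM in Tibetan 1, 2 and 3, 523, 544 and 487 FPKM in Wujin 1, a and b, and 500.1, 427 and 355 FPKM in Large White 1, 2 and 3. The Tibetan values lay below all others, and the Wujin and Large White values overlapped. It ranked between 691 and 905 in the Tibetan libraries, between 139 and 154 in Wujin and between 160 and 198 in Large White.

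**Figure D1:**
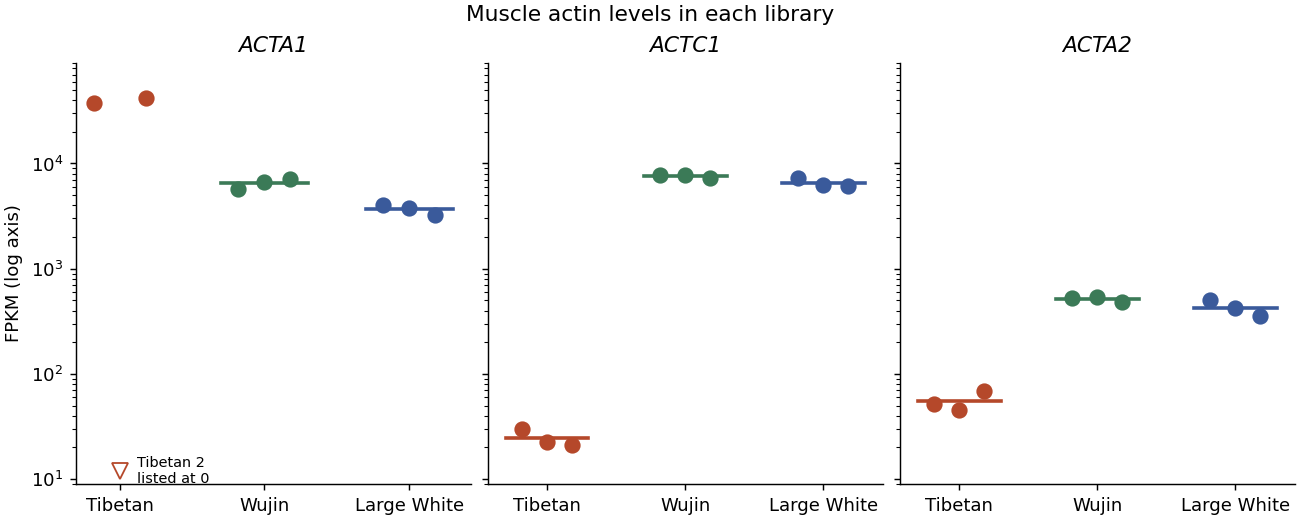
FPKM of ACTA1, ACTC1 and ACTA2 in each library on a log axis, with breeds in the order Tibetan, Wujin and Large White and horizontal bars at breed means (none for ACTA1 in Tibetan). ACTC1 is at 21.0 to 30.0 FPKM in Tibetan libraries, 7352 to 7699 FPKM in Wujin and 6127 to 7347 FPKM in Large White libraries, and the listed 0 of ACTA1 in Tibetan 2 is marked apart.

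For ACTC1 and ACTA2, spread within a breed was small beside the gap between Tibetan and the other breeds. ACTC1 averaged 24.6 ± 4.73 FPKM in Tibetan, 7582 ± 199 FPKM in Wujin and 6593 ± 659 FPKM in Large White (SD, n = 3 each). ACTA2 averaged 55.5 ± 11.9 FPKM in Tibetan, 518 ± 28.8 FPKM in Wujin and 427 ± 72.5 FPKM in Large White (SD, n = 3 each). ACTA1 averaged 6526 ± 739.8 FPKM in Wujin and 3670.4 ± 433 FPKM in Large White (SD, n = 3 each). The coefficient of variation of ACTC1 was 19.3% in Tibetan, 2.63% in Wujin and 10% in Large White. The median over all tested entries was 19.5%, 19% and 10% in the same breeds, so only the Wujin value was well under that of a typical gene. In Large White each of the 3 actins was highest in library 1 and lowest in library 3.

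Changes between breeds were tested on log2(FPKM + 1) with limma, fitted to all 13106 entries and 9 libraries, and are called at a Benjamini-Hochberg adjusted p under 0.05. This scale understates the change of low genes. The median tested entry was itself lower in Tibetan than in Large White, by a log2 change of -0.77, lower in Tibetan than in Wujin (-0.55) and lower in Wujin than in Large White (-0.20). A relative change below is the fitted change minus that median.

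Against Large White, ACTC1 fell in Tibetan muscle by a log2 change of -8.02 ± 0.15 (SE; adjusted p = 7.92e-09 by limma), a relative change of -7.25. That was the 8th largest change in size among the entries tested. ACTA2 fell by -2.93 ± 0.18 (SE; adjusted p = 8.32e-07 by limma), a relative change of -2.16. With the 0 as deposited, ACTA1 had a log2 change of -1.65 ± 3.38 (SE; adjusted p = 0.669 by limma), which is not called. With that 0 treated as missing, an alternative added after seeing the data, ACTA1 rose by 3.44 ± 0.17 (SE; adjusted p = 7.86e-07 by limma; Tibetan n = 2), a relative change of 4.21. So 2 of the 3 actins were called lower and none higher as deposited. Of all entries, 63.2% were called lower and 13% higher, and 80.6% had no overlap between the 3 Tibetan and 3 Large White values, so a call in itself was common here.

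Against Wujin the Tibetan libraries gave the same picture. ACTC1 fell by a log2 change of -8.23 ± 0.15 (SE; adjusted p = 6.29e-09 by limma), a relative change of -7.68 and the 3rd largest change in size. ACTA2 fell by -3.22 ± 0.18 (SE; adjusted p = 6.17e-07 by limma), a relative change of -2.67. ACTA1 had a log2 change of -2.48 ± 3.38 (SE; adjusted p = 0.535 by limma) as deposited and rose by 2.61 ± 0.17 (SE; adjusted p = 4.42e-06 by limma) with the 0 as missing, a relative change of 3.16. In this comparison 53.9% of entries were called lower, 13.8% higher, and 67.7% had no overlap. The Tibetan libraries enter both comparisons, which are therefore not independent.

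Between Wujin and Large White no actin was called as deposited. ACTC1 had a log2 change of 0.21 ± 0.15 (SE; adjusted p = 0.357 by limma) and a relative change of 0.40. ACTA2 had a log2 change of 0.29 ± 0.18 (SE; adjusted p = 0.277 by limma) and a relative change of 0.49. ACTA1 had a log2 change of 0.83 in Wujin, with an SE of 3.38 and an adjusted p of 0.882 by limma when the Tibetan 0 enters the shared spread. Without that 0 the same change had an SE of 0.16 and was called (adjusted p = 0.0314 by limma), with Wujin 1.78-fold higher. The call was lost on leaving out Tibetan 1, Wujin a, or Large White 1, 2 or 3, with adjusted p between 0.0523 and 0.136. Few entries were called here, 1.67% higher and 4.85% lower, while 44.9% had no overlap, as ACTA1 and ACTC1 did.

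The test of any difference among the 3 breeds called ACTC1 (adjusted p = 7.41e-09 by limma's F test) and ACTA2 (adjusted p = 7.52e-07). ACTA1 was not called as deposited (adjusted p = 0.773) and was called with the 0 as missing (adjusted p = 1.76e-06). The same test called 77.6% of all entries.

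Ratios within a library do not depend on its scaling, and each of the 3 ratios set the Tibetan libraries apart from the rest. ACTC1 was 0.0800% of ACTA1 in Tibetan 1 and 0.0503% in Tibetan 3, so there were 1249 and 1988 FPKM of ACTA1 for each FPKM of ACTC1. The ACTC1 to ACTA1 ratio was 1.35, 1.14 and 1.03 in Wujin 1, a and b, against 1.81, 1.69 and 1.91 in Large White 1, 2 and 3. ACTC1 thus led ACTA1 in all 6 Wujin and Large White libraries, and each Wujin ratio lay below each Large White ratio. On the log2 scale the ratio averaged -10.62 ± 0.47 in Tibetan (SD, n = 2), 0.22 ± 0.20 in Wujin and 0.85 ± 0.09 in Large White (SD, n = 3 each). Wujin differed from Large White by -0.62 log2 units, and Tibetan differed from Large White by -11.47.

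ACTA2 per ACTA1 ran the same way, at 0.00139 and 0.00164 in Tibetan 1 and 3, against 0.0681 to 0.0916 in Wujin libraries and 0.111 to 0.123 in Large White libraries. Again no Wujin library reached the lowest Large White ratio. ACTC1 per ACTA2 does not involve the listed 0, so all 9 libraries have a value. It was 0.576, 0.498 and 0.306 in Tibetan 1, 2 and 3, against 14.1 to 15.1 in Wujin libraries and 14.7 to 17.3 in Large White libraries. The last breeds overlapped, with log2 means of 3.87 ± 0.05 in Wujin and 3.96 ± 0.13 in Large White, while the Tibetan mean was -1.17 ± 0.48 (SD, n = 3 each).

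**Figure D2:**
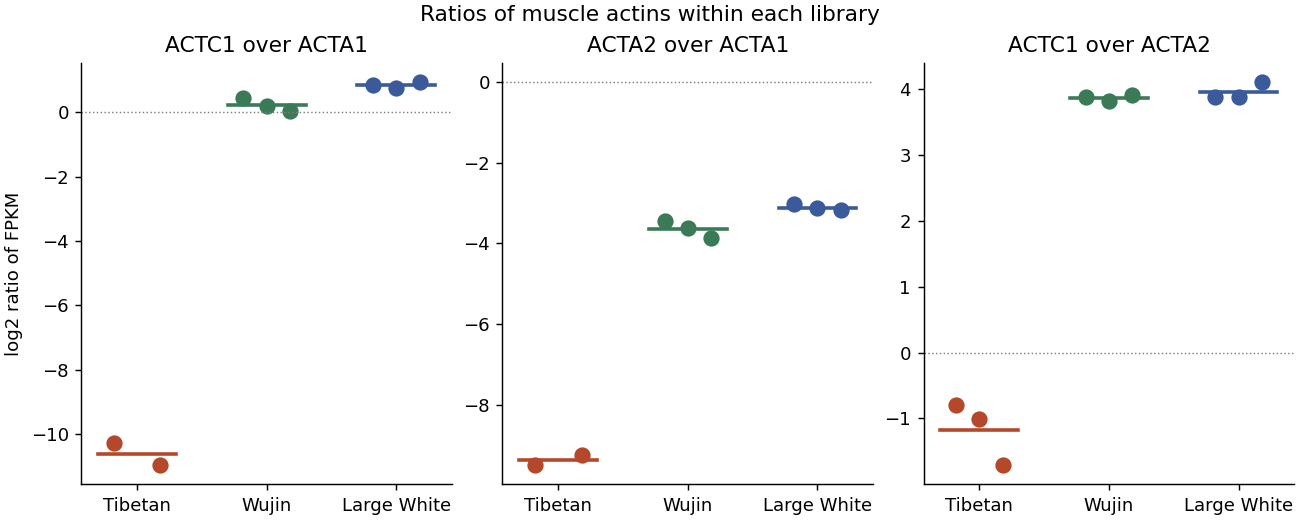
Ratios of the FPKM of ACTC1 to ACTA1, ACTA2 to ACTA1 and ACTC1 to ACTA2 in each library, as log2, with breeds in the order Tibetan, Wujin and Large White, horizontal bars at means and a separate vertical axis in each panel. Tibetan 2 has no value in the panels that use ACTA1, and ACTC1 to ACTA1 averages -10.62 in Tibetan, 0.22 in Wujin and 0.85 in Large White.

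As shares of the summed FPKM of the 3 genes, ACTA1 made up 99.78% in Tibetan 1 and 99.79% in Tibetan 3. It made up 44.5% ± 3.38 in Wujin and 34.3% ± 1.31 in Large White (SD, n = 3 each). The ACTC1 share was 0.0799% and 0.0502% in Tibetan 1 and 3, 51.9% ± 3.13 in Wujin and 61.7% ± 1.51 in Large White. ACTA2 held 3.55% ± 0.264 in Wujin and 3.98% ± 0.279 in Large White. The lowest ACTA1 share in Wujin, 40.98%, lay above the highest in Large White, 35.70%.

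The summed level of the 3 genes was also highest in Tibetan 1 and 3. It was 37506 and 41919 FPKM in Tibetan 1 and 3, 13930, 14960 and 14987 FPKM in Wujin 1, a and b, and 11914, 10467 and 9690.2 FPKM in Large White 1, 2 and 3. That is 6.09% and 6.18% of all FPKM in Tibetan 1 and 3, 2.72% to 2.76% in Wujin libraries and 1.78% to 2.07% in Large White libraries. In Tibetan 2 the sum without ACTA1 was 68.4 FPKM.

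**Figure D3:**
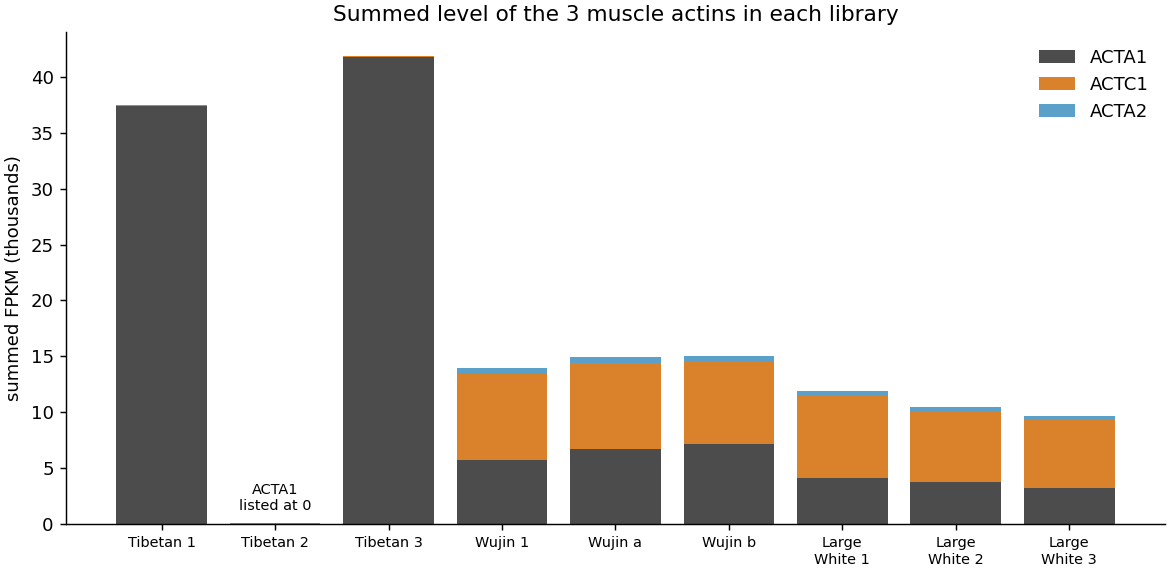
Summed FPKM of ACTA1, ACTC1 and ACTA2 in each library, with bars stacked by gene from 0 and breeds in the order Tibetan, Wujin and Large White. ACTA1 fills nearly the whole bar in Tibetan 1 and 3 (99.78% and 99.79%), and ACTC1 is the larger part in every Wujin and Large White library.

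The non-muscle actins, which build the cytoskeleton of all cells, changed less. ACTB stood at 307, 336 and 303 FPKM in Tibetan 1, 2 and 3, at 817, 842 and 941 FPKM in Wujin 1, a and b, and at 669.8, 695 and 700.4 FPKM in Large White 1, 2 and 3. ACTG1 stood at 361, 313 and 394 FPKM in Tibetan 1, 2 and 3, at 876, 984 and 1090.2 FPKM in Wujin 1, a and b, and at 996, 997 and 994 FPKM in Large White 1, 2 and 3. Tibetan values were the lowest for both genes. Against Large White, ACTB fell in Tibetan by a log2 change of -1.13 ± 0.11 (SE; adjusted p = 1.51e-05 by limma), a relative change of only -0.35. With median-ratio scaling ACTB was not called (log2 change -0.15, adjusted p = 0.362). ACTG1 fell by -1.49 ± 0.13 (SE; adjusted p = 8.05e-06 by limma), a relative change of -0.72.

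ACTG2, the enteric smooth muscle actin, was scarce, at 0.684 to 1.34 FPKM in Tibetan, 1.13 to 2.04 FPKM in Wujin and 2.26 to 3.71 FPKM in Large White. It fell in Tibetan against Large White (adjusted p = 0.00168 by limma), but its relative change was -0.21 and it was not called with median-ratio scaling (adjusted p = 0.0813) or quantile normalization (adjusted p = 0.466). ACTBL2 was listed at 0 in all libraries but Wujin b.

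Proteins that sit on or cap the sarcomeric thin filament moved in both directions. Of 20 listed genes 14 were measured and tested: 7 rose, 2 fell and 5 were not called in Tibetan against Large White. Over all entries 13% rose and 63.2% fell. The list had a median log2 change of 0.96 and a relative median of 1.73. TNNT2, the cardiac and embryonic troponin T, was the one closest to ACTC1 in direction and size, at 6.51 ± 1.40 FPKM in Tibetan, 809 ± 189 FPKM in Wujin and 499 ± 68.4 FPKM in Large White (SD, n = 3 each). It fell against Large White by a log2 change of -6.07 ± 0.20 (SE; adjusted p = 5.46e-08 by limma). TMOD4, the tropomodulin that caps filaments in skeletal muscle, rose to 676 ± 82.7 FPKM in Tibetan, against 12.9 ± 2.37 FPKM in Large White (SD, n = 3 each; log2 change 5.62, adjusted p = 3.42e-08 by limma). LMOD2, a leiomodin that lengthens thin filaments, rose to 260.4 FPKM against 34.2 FPKM. TPM1, an alpha-tropomyosin that lies along actin, rose to 9219 FPKM against 1226 FPKM. Among the 7, TNNT1 and TPM2 owe much of their Tibetan mean to Tibetan 2. TNNT1, the troponin T of slow fibres, had 893, 2855 and 1044 FPKM in Tibetan 1, 2 and 3, and without Tibetan 2 its log2 change of 1.01 became 0.49 and was not called (adjusted p = 0.105 by limma). TPM2, a beta-tropomyosin, had 3123, 5534 and 2809.8 FPKM in the same libraries.

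Genes that anchor thin filaments at the Z-disc mostly rose in Tibetan muscle. Of 17 listed, 11 were tested in Tibetan against Large White: 9 rose and the other 2 were not called. Over all entries 13% were called higher. The median log2 change of the list was 1.70 and its relative median 2.47. PDLIM3, an alpha-actinin partner, stood at 720.1 ± 118 FPKM in Tibetan, 40.3 ± 9.37 FPKM in Wujin and 24.9 ± 2.23 FPKM in Large White (SD, n = 3 each). MYOZ1, a calcineurin-binding Z-disc protein of fast fibres, rose by a log2 change of 4.11 (adjusted p = 7.47e-08 by limma), and TCAP, which ties titin ends together, rose by 3.69. NRAP, a scaffold for building new myofibrils, rose to 115 FPKM in Tibetan against 16.7 FPKM in Large White. CSRP3, a muscle LIM protein, stood at 139, 493 and 128 FPKM in Tibetan 1, 2 and 3 and was not called (log2 change -0.84, adjusted p = 0.109 by limma), but it was called lower without Tibetan 2 (-1.46, adjusted p = 8.44e-05). Without Tibetan 2, 10 Z-disc genes rose and 1 fell.

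Genes that recycle actin filaments fell about as often as entries at large. In the turnover list 11 of 16 tested members fell and 4 rose in Tibetan against Large White, where 63.2% of all entries were called lower and 13% higher, and the relative median was -0.28. With median-ratio scaling 8 fell and 6 rose. CFL1, the non-muscle cofilin that severs filaments, had 72.0 ± 2.26 FPKM in Tibetan, 375 ± 15.1 FPKM in Wujin and 365 ± 17.5 FPKM in Large White (SD, n = 3 each), a log2 change of -2.32 against Large White (adjusted p = 1.52e-07 by limma). DSTN, the related destrin, fell by -2.73 and CORO1B, a coronin, by -1.88. TWF2, a twinfilin that binds actin monomers, rose by 1.76.

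In the list of nucleation genes 14 of 18 tested members fell and 3 rose, beside 63.2% lower and 13% higher over all entries, with a relative median of -0.48; with median-ratio scaling 9 fell and 4 rose. ACTR3, an actin-related subunit of the Arp2/3 complex that starts branches, had 8.33 ± 0.233 FPKM in Tibetan against 34.6 ± 0.832 FPKM in Large White (SD, n = 3 each). Its partners ARPC5 and ARPC1A fell by log2 changes of -1.84 and -1.39. FHOD1, a formin that acts on unbranched filaments, rose to 76.0 FPKM in Tibetan against 10.9 FPKM in Large White.

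For genes that fold actin the direction rested on the scaling. New actin is folded by the CCT ring. Of 11 tested members 8 fell and none rose in Tibetan against Large White, beside 63.2% lower and 13% higher over all entries. The median log2 change was -0.60, but the relative median was 0.17. With median-ratio scaling 6 rose and 1 fell, and with quantile normalization 3 rose and 7 fell. CCT2 fell by a log2 change of -1.57 (adjusted p = 7.03e-06 by limma), a relative change of -0.80. CCT3 had a log2 change of -0.90 as deposited and of 0.064 with median-ratio scaling.

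**Figure D4:**
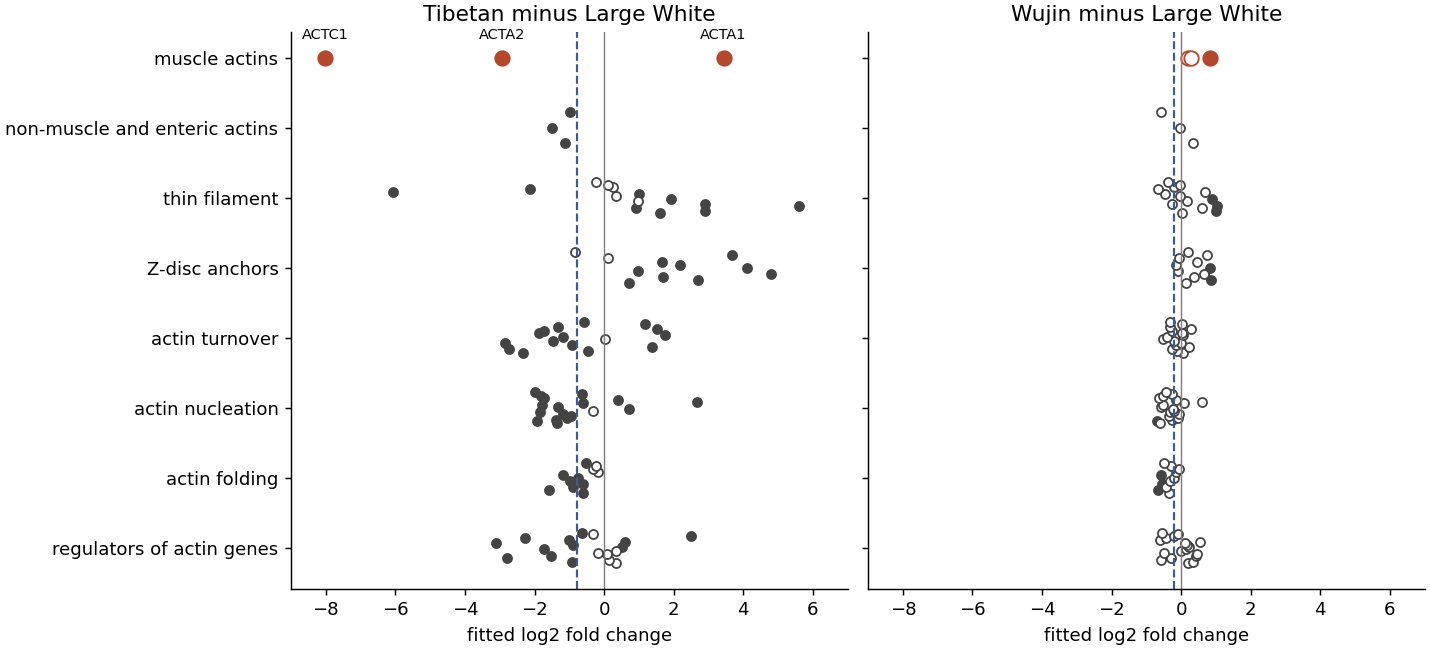
Fitted log2(FPKM + 1) changes for every tested member of each list, grouped by role from top to bottom, for Tibetan minus Large White (left) and Wujin minus Large White (right); filled points have an adjusted p under 0.05 and the dashed line is the median of all tested entries. ACTA1 is drawn with the Tibetan 2 value as missing (3.44 in Tibetan against Large White), and TNNT2 (-6.07), the leftmost thin filament point, lies nearest to ACTC1 (-8.02).

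Among transcription factors and cofactors listed as regulators of muscle actin promoters, 18 of 29 were measured and tested. In Tibetan against Large White 9 were lower, 3 higher and 6 not called, beside 63.2% lower and 13% higher over all entries. The relative median was 0.31. With median-ratio scaling 9 were higher and 5 lower, and with quantile normalization 7 were higher and 6 lower. SRF, the factor that binds the CArG elements of all alpha-actin promoters, had 20.2 ± 6.68 FPKM in Tibetan, 17.5 ± 1.43 FPKM in Wujin and 15.1 ± 0.914 FPKM in Large White (SD, n = 3 each). SRF was not called against Large White (log2 change 0.35, adjusted p = 0.133 by limma), with a relative change of 1.12. It is given for its known role, outside the rule for named genes, as is MRTFA. MRTFA, the SRF partner that senses free actin, was called lower (log2 change -0.93, adjusted p = 0.00448), but its relative change was -0.16, and it was not called with median-ratio scaling (log2 change -0.05, adjusted p = 0.864) or quantile normalization (-0.21, adjusted p = 0.377). TEAD2, a factor of the Hippo pathway, had 7.52 ± 0.397 FPKM in Tibetan, 47.3 ± 3.65 FPKM in Wujin and 58.1 ± 1.96 FPKM in Large White (SD, n = 3 each). MEF2C, a myogenic factor of skeletal and heart muscle, and MYF5, an early myogenic factor, fell by log2 changes of -1.74 and -3.11. FHL3, a LIM-domain cofactor, rose by 2.50.

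Against Wujin, where 53.9% of all entries were called lower and 13.8% higher, 7 thin filament genes rose and 2 fell, and 9 Z-disc genes rose and none fell. Of the turnover list 4 rose and 10 fell, of the nucleation list 3 rose and 14 fell, of the folding list 5 fell, and of the regulators 2 rose and 8 fell. The lower counts for turnover (10 of 16), folding (5 of 11) and regulators (8 of 18) are near the share over all entries. With median-ratio scaling these became 6 and 8 for turnover, 4 and 7 for nucleation, 6 and 0 for folding, and 7 and 6 for the regulators. TNNT2 fell by a log2 change of -6.74 and TMOD4 rose by 4.59. Between Wujin and Large White 3 thin filament genes (TPM1, TMOD4 and TNNC2) and 2 Z-disc genes (NRAP and MYOZ1) rose, while 3 folding genes (CCT2, CCT4 and CCT8) and ACTR3 fell. Over all entries 1.67% were called higher and 4.85% lower in that comparison. TPM1 rose to 2457 FPKM in Wujin, against 1226 FPKM in Large White (log2 change 1.002, adjusted p = 0.0168 by limma). Each of these 9 calls was lost on leaving out Wujin a, Large White 2 or Large White 3, and TNNC2 and CCT4 are named after their values were seen.

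ACTA2 and ACTC1 are also markers of cells other than skeletal fibres, so the marker lists of those cells were read beside them. The 9 measured smooth muscle markers other than ACTA2 summed to 243 to 300 FPKM in Tibetan, 239 to 266 FPKM in Wujin and 229.9 to 258 FPKM in Large White libraries, with overlapping ranges. MYH11, the defining smooth muscle myosin, stood at 1.01 to 1.86 FPKM in Tibetan, 0.205 to 0.487 FPKM in Wujin and 0.774 to 0.876 FPKM in Large White, and KCNMB1 was at 0 in most libraries. TAGLN, an actin-binding smooth muscle protein, was at 103 ± 15.0 FPKM in Tibetan, 94.6 ± 11.3 FPKM in Wujin and 89.9 ± 7.86 FPKM in Large White (SD, n = 3 each) and was not called against Large White (adjusted p = 0.267 by limma), though it was called higher with median-ratio scaling (log2 change 1.154, adjusted p = 0.000313). CNN1, a calponin, followed ACTA2 more closely, at 11.5 ± 1.45 FPKM in Tibetan, 50.1 ± 4.66 FPKM in Wujin and 52.2 ± 3.40 FPKM in Large White. SYNPO2 went the other way, at 125 FPKM in Tibetan against 32.5 FPKM in Large White. The overlap of the sums above rests on this gene, at 101 to 141 FPKM in the Tibetan libraries and 24.0 to 39.0 FPKM in Wujin. Without it every Tibetan sum would lie below every Wujin and Large White sum. Of the 7 tested markers 5 fell, 1 rose and 1 was not called; 63.2% of all entries fell, and the relative median of the list was 0.03.

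Most pericyte markers were lowest in Tibetan libraries, as ACTA2 was. The 7 measured genes summed to 28.2 to 40.3 FPKM in Tibetan, 139 to 183 FPKM in Wujin and 151 to 169.8 FPKM in Large White. Of the 7, 6 fell in Tibetan against Large White, where 63.2% of all entries were called lower. The relative median of the list was -0.68. MCAM fell by a log2 change of -2.85, NOTCH3 by -2.60 and PDGFRB by -1.21, the last not called with median-ratio scaling (adjusted p = 0.146). ANPEP, a scarce marker named after its values were seen, averaged 1.78 FPKM in Tibetan, 0.561 FPKM in Wujin and 0.831 FPKM in Large White; it rose against Wujin (adjusted p = 0.0269 by limma) and was not called against Large White (adjusted p = 0.0917). Fibroblast markers also fell, 8 of 8 beside 63.2% of all entries, with a relative median of -3.22. Their sums were 321 to 358 FPKM in Tibetan, 3080.4 to 5615 FPKM in Wujin and 5365 to 5996 FPKM in Large White. The part of these cells in the ACTA2 and ACTC1 differences was not tested.

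The heart markers that were measured, 7 of 13 listed, were near 0. NPPA, MYL7 and TNNI3 were among those with no matched entry. The 7 measured genes summed to 0.0180 to 0.120 FPKM in Tibetan, 1.17 to 2.31 FPKM in Wujin and 1.77 to 3.25 FPKM in Large White, in libraries whose ACTC1 level reached 7699 FPKM; 6 of the 7 were below 1 FPKM in every library. MYBPC3, the cardiac myosin-binding protein C, was the highest, at 0.0323 FPKM in Tibetan, 0.995 FPKM in Wujin and 1.96 FPKM in Large White on average. The label of skeletal muscle held for all libraries, by the 6 markers measured of 12 listed, ACTA1 not among them. These summed to 11595 to 11729 FPKM in Tibetan, 4983 to 5344 FPKM in Wujin and 3634 to 4247 FPKM in Large White. The order of the sums was like that of ACTA1. MYL1 and DES, a fast myosin light chain and the muscle intermediate filament, carry most of that sum. Of the 6 markers 5 rose in Tibetan against Large White, beside 13% of all entries. MYOD1, a myogenic factor named after its values were seen, fell to 25.7 FPKM in Tibetan, against 47.9 FPKM in Large White. Its log2 change was -0.89 (adjusted p = 0.000391 by limma), but its relative change was only -0.12.

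**Figure D5:**
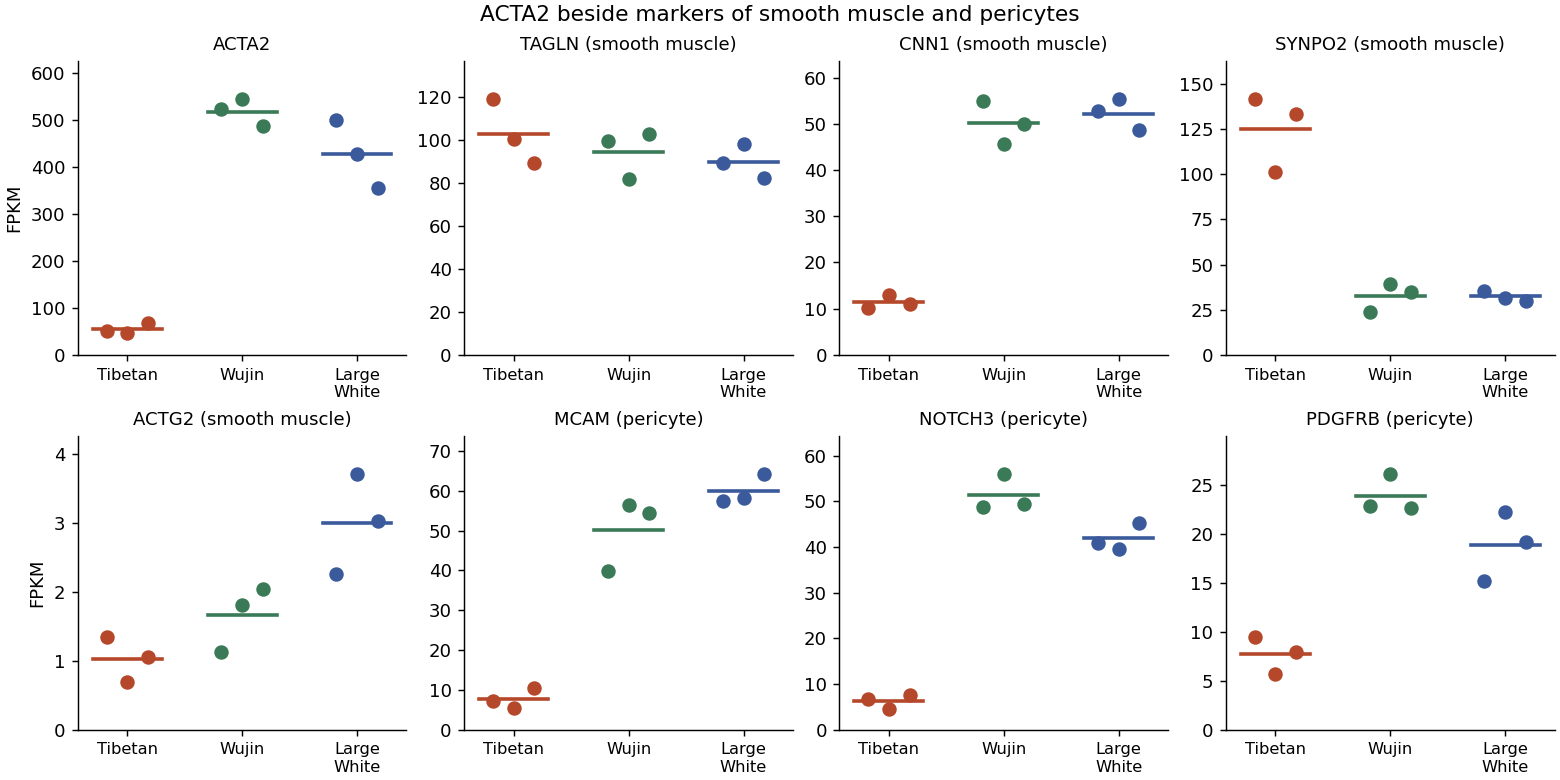
FPKM of ACTA2 and of the named markers of smooth muscle and pericytes in each library, in panels with separate vertical axes that start at 0, with breeds in the order Tibetan, Wujin and Large White and horizontal bars at breed means. ACTA2, CNN1, MCAM, NOTCH3 and PDGFRB are lowest in all Tibetan libraries, SYNPO2 is highest there, and TAGLN overlaps between breeds.

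The genes most like each actin were ranked by Pearson's r on log2(FPKM + 1) over the 9 libraries, which share a large gap between Tibetan and the rest. For ACTC1 they were PIK3R2, a regulatory subunit of PI3-kinase (r = 0.9996), HIC1, a transcriptional repressor (0.9992), EPHB3, an ephrin receptor (0.999), CFL1 (0.999) and EFS, an adaptor protein (0.9987). For ACTA2 they were PRR19 (r = 0.9959), CHTF18 (0.9954), SPTAN1, a non-erythroid spectrin (0.9953), GNAI2, a G protein subunit (0.9952) and FAM110B (0.9949). ACTC1 itself spanned far more than its neighbours: PIK3R2 averaged 1.40 FPKM in Tibetan, 19.2 FPKM in Wujin and 17.9 FPKM in Large White.

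For ACTA1 the listed 0 set the ranking over 9 libraries, which gave HIRA (r = 0.9626), UNC45B (0.9251), MIF4GD (0.9186), FOXK2 (0.916) and VPS4A (0.9087). Over the 8 libraries without Tibetan 2, an alternative added after seeing the data, the closest were CMYA5 (r = 0.9976), ATP2A1 (0.9971), NRAP (0.9945), SLC2A4 (0.9945) and MYH8 (0.9943). ATP2A1, the calcium pump of fast fibres, averaged 2898 FPKM in Tibetan, 155 FPKM in Wujin and 50.1 FPKM in Large White. MYH8, the perinatal myosin heavy chain, averaged 3330.4 FPKM in Tibetan, 108 FPKM in Wujin and 54.0 FPKM in Large White. In Tibetan 2, which did not enter this ranking, MYH8 stood at 3157 FPKM, between its values in the other Tibetan libraries. ATP2A1 stood at 2034 FPKM there, below 2845 FPKM in Tibetan 1 and 3815 FPKM in Tibetan 3, and CMYA5, NRAP and SLC2A4 were likewise lowest of the Tibetan libraries in Tibetan 2. All 4 of these were still higher in Tibetan 2 than in any Wujin or Large White library.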

How the data were processed

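RNA was measured in 9 libraries of embryonic longissimus dorsi, 3 for each of 3 breeds. The authors deposited 1 table of FPKM per gene and library, per the file headers. TopHat is named, with no version, per the submitters' processing notes; quantifier, genome build and annotation were not given in the sources used here. FPKM are not counts and their depth is unknown, which leaves no counting intervals; steps among low values put the depth of the libraries at 1 to 1.22 times that of Large White 1, and FPKM totals ran from 505042 to 677783. Columns were assigned by their headers, and 0 columns of sample values were left out.

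Symbols were matched by identifier for 11179 of 19643 entries (56.91%), so some list members may stand among entries with no symbol. Entries averaging 1 FPKM or more were tested on log2(FPKM + 1) with limma 3.58.1 in R 4.3.3: 3 breed means fitted to all 9 libraries, eBayes with a trend, and Benjamini-Hochberg adjustment over all tested entries at 0.05. The scripts were tested on simulated data. Lists and actins were chosen with earlier results of these data known. Named genes are the actins, the 4 tested members of each list with the smallest F p, at most the 3 most abundant markers of a list, and the 5 genes most correlated with each actin. Alternatives changed the pseudocount, filter, scaling, libraries in the fit and replicate block.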

Additional observations from a re-analysis of the deposited data

How the results depend on the processing

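ACTC1 and ACTA2 kept their direction and their calls in Tibetan against Large White and against Wujin under every alternative run. In Tibetan against Large White the log2 change of ACTC1 ran from -8.17 to -7.06 and that of ACTA2 from -3.09 to -1.96. The listed 0 of ACTA1 in Tibetan 2 turns that gene's direction. Leaving out Tibetan 2 or treating the 0 as missing gave 3.44 against Large White (main -1.65) and 2.61 against Wujin (main -2.48). Leaving out each library in turn, these changes ran from -4.24 to 3.44 and from -5.07 to 2.61. For ACTA1 in Wujin against Large White the change of 0.83 became called with only those breeds in the fit (adjusted p = 0.0416 by limma), without Tibetan 2 (0.0286) or with the 0 as missing (0.0314). With the 0 as missing it was 0.83 and not called with no filter (adjusted p = 0.0886), and leaving out each library gave 0.74 to 0.92. CCT3 in Tibetan against Large White became 0.064 with median-ratio scaling, and CSRP3 became 0.14 (main -0.84).

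With ACTB, ACTG1 and ACTG2 in the denominator the shares fell: ACTA1 to 98.1% in Tibetan, 39.5% in Wujin and 29.6% in Large White; ACTC1 to 46.1% in Wujin and 53.2% in Large White; ACTA2 to 3.15% in Wujin and 3.44% in Large White. Over all entries, Tibetan against Large White gave 1703 higher and 8280 lower calls, and 4304 and 4139 with median-ratio scaling; Tibetan against Wujin gave 1809 and 7062, and 4109 and 3835. Wujin against Large White gave 219 higher and 636 lower calls, 120 and 150 with a pseudocount of 0.1, 327 and 1504 with one of 5, and between 23 and 254 higher and 39 and 1373 lower on leaving out 1 library. Of 770 list counts recomputed, 706 stayed within 1.5 times the main count. Same-numbered Tibetan and Large White libraries did not deviate together (correlations 0.013, -0.0226 and -0.076), and the labels give no pairing or batch beyond the number. With the replicate block 1751 entries were higher and 8274 lower. There ACTC1 stayed at -8.02 (adjusted p = 5.65e-05 by limma) and ACTA2 at -2.93 (adjusted p = 0.000238 by limma). Depth is unknown, so levels near 0 cannot be given a limit. The cause of each shift was not tested.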

Other observations

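Sarcomeric actin was also set against its partners on the thin filament, as plain ratios of summed FPKM. ACTA1 plus ACTC1 per TPM1 plus TPM2, the tropomyosins, was 3.21 and 3.02 in Tibetan 1 and 3, 2.25, 2.75 and 3.00 in Wujin 1, a and b, against 3.19, 3.28 and 3.31 in Large White 1, 2 and 3. Per TNNC1 plus TNNC2, the troponin C genes, it was 1.73 and 1.67 in Tibetan 1 and 3, 0.870, 1.40 and 1.44 in Wujin 1, a and b, against 1.34, 1.49 and 1.62 in Large White 1, 2 and 3. Against tropomyosin the Tibetan and Large White ratios lay close together, although the isoform makeup of both actin and tropomyosin differed. TPM1 stood at 8561 and 11027 FPKM in Tibetan 1 and 3, above TPM2 at 3123 and 2810 FPKM. In every Large White library TPM1 lay below TPM2. Against troponin C both Tibetan ratios lay above every Large White ratio. Wujin 1 was the lowest for both ratios. No test was run on these ratios, and Tibetan 2 has none because of the listed 0 of ACTA1.

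Genes beside each actin in the RefSeq annotation of Sscrofa11.1 were read for order only. In Tibetan against Large White, NUP133 next to ACTA1 had a log2 change of -1.83 and CCSAP on the other side one of -0.96 (adjusted p = 2.62e-05 and 4.84e-05 by limma), while ACTA1 had the highest values in Tibetan. AQR next to ACTC1 had a log2 change of -1.68 (adjusted p = 0.000242). STAMBPL1 next to ACTA2 was not called (0.33, adjusted p = 0.193). FAS, on the other side of ACTA2, did not pass the filter. It stood at 2.01, 1.41 and 1.41 FPKM in Tibetan 1, 2 and 3. In Wujin it stood at 0.319 to 0.396 FPKM and in Large White at 0.204 to 0.292 FPKM. FAS was thus highest in Tibetan, where ACTA2 was lowest.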
